A study of Mus musculus with 2 samples.

Results

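Pgr encodes the progesterone receptor, and 4 of the 26584 m6A peaks of the mouse uterus on gestational day 4 had their summit inside its gene span. These 4 peaks were chosen by position alone, from the RefSeq span of Pgr on chromosome 9, 8898900 to 8968611 (GRCm38, the assembly of mm10). The span is 69712 bp long, reads along the plus strand and overlaps no other gene of the RefSeq table.

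The study mapped N6-methyladenosine (m6A), a methyl group that cells add to adenosines inside mRNAs, with an antibody that pulls down fragments bearing it. The pulled-down fragments (IP) are sequenced together with fragments that were not selected (input). By its labels the series has 1 sample of each kind, both of polyA RNA from the uterus of wild-type mice, mated to fertile males at 6 to 8 weeks of age and taken on day 4, with the day of the vaginal plug as day 1. The cell type is given as mixed, and how many animals each sample holds is not given. With 1 sample of each kind there is no test across samples, and no other day or genotype was analysed here.

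Every one of the 26584 peak names starts with D8NegIP-Posinput, a run name at odds with the labelled day. Whether the list belongs to the day 4 sample, and which input gave its background, is unsettled, and this holds for every value below. Of 16 marker genes of uterine stroma, epithelium, smooth muscle and endothelium, 15 had a peak (Krt18 had none), against 1 of 8 markers of ovary, oviduct, embryo and blood (Ovgp1). These counts include summits in spans shared by several genes, by which rule 44.8% of all protein-coding genes had a peak.

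The progesterone receptor is a nuclear receptor that waits in a chaperone complex, binds progesterone, moves onto DNA and recruits coregulators to switch target genes on or off. In the early pregnant uterus it halts epithelial growth and prepares the stroma for implantation, and mice without it are infertile. The gene gives a long and a short protein, PR-B and PR-A, from different start codons. In mRNA, m6A sits mostly in DRACH sequences, and is known to be dense around stop codons and in long exons. Writers deposit it, erasers remove it, and readers act on the splicing, export, translation or decay of the marked mRNA.

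The strongest of the peaks began almost at the listed transcript start of Pgr. RefSeq's promoter table lists 1 start for Pgr, at base 8899833, and the span begins 933 bp before it. The first base of peak 1 lay 4 bp after the listed start. RefSeq gives 2 transcripts for Pgr, and since the span begins earlier, some annotated form of the gene starts before the listed start. Which form does was not tested. Counted from the beginning of the span, the summit of peak 1 lay 1773 bp in. The first 30 bases from the listed start are shown because the edge of the peak falls inside them. They are taken from RefSeq (GRCm38.p6, plus strand, chr9:8899833-8899862), and the capitals mark the DRACH match:
Pgr transcript start: cagtctAGACTgtcactatcagtctttgta

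DRACH stands for A, G or T, then A or G, then A, then C, then A, C or T. The match begins at base 7 from the listed start, 8899839 to 8899843, inside peak 1, and is the only one in the first 50 bases. The opposite strand of the same 50 bases has 3 matches. Such a match is common and marks no site. Of 32851 listed starts, 54.4% have at least 1 match in the first 50 bases of the sense strand and 55.2% on the opposite strand. Over the 21263 listed starts of protein-coding genes the share on the sense strand was 50.4%. Among protein-coding genes with a peak that covers a listed start or begins within 50 bp after it, the share was 44.1% of 1165 starts on the sense strand. The sequence under the summits of the Pgr peaks was not analysed here.

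Peak 1, at 8899837 to 8902081, had a fold enrichment of 13.8 (95% interval 10.6 to 17.5). The fold enrichment is the peak caller's own value, the IP pileup plus 1 over the background plus 1 at the summit. The pileup is the number of IP fragments over the summit. Pileup and background were recovered from the deposited fold enrichment and significance, and the intervals cover the counting of IP fragments only, with the background taken as known. At the summit of peak 1, base 8900673, 63 IP fragments stood over a background of 3.65. The summit lay 840 bp into the gene from the listed start, in the part of the peak nearer to that start (37.2% of its width). Its −log10 q was 50.7, where a threshold of 0.05 corresponds to the lowest value of the list, 1.31.

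Peak 2 followed 1341 bp after the end of peak 1, at 8903423 to 8903739, with a fold enrichment of 7.86 (5.31 to 11.2). It rested on 28 IP fragments over a background of 2.69, at a −log10 q of 16.6. Its summit lay 3763 bp from the listed start. The summits of peaks 1 and 2 thus stood in the first 5.47% of the distance from the listed start to the end of the span.

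The other pair lay in the middle of the gene, 29548 bp beyond peak 2. Peak 3, at 8933288 to 8933574, had the lowest fold enrichment of the 4, 3.14 (1.78 to 5.21), with 13 IP fragments over a background of 3.46 and a −log10 q of 2.44. Peak 4, at 8936360 to 8936993, had 3.87 (2.44 to 5.88), with 20 IP fragments over 4.42 and a −log10 q of 5.42. Their summits stood 33572 and 36657 bp from the listed start. By fold enrichment both are near the weak edge of the list, and peak 3 is the member closest to the threshold of the peak calling. By −log10 q, peak 3 was at percentile 1.40 of all peaks and peak 4 at 17.4.

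No summit was found in the last 32121 bp of the span, which holds the end of the transcript. The peak list does not give the depth over regions without a peak, so what the antibody recovered there is not known from these data. The gene table holds no exons, so which of the peaks lie in exons, introns or untranslated regions was not tested.

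**Figure D1:**
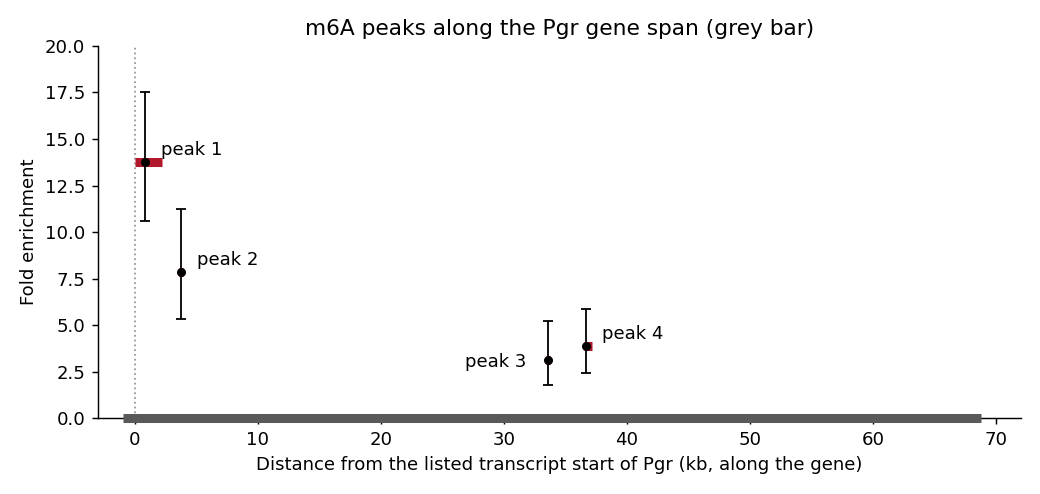
Fold enrichment of the 4 Pgr peaks (vertical axis) against the distance from the listed transcript start in kb (horizontal axis); points are summits, error bars are 95% counting intervals, red bars are peak widths and the grey bar is the gene span. Peak 1 starts 4 bp after the listed start and stands highest at 13.8, peaks 3 and 4 lie in the middle at 3.14 and 3.87, and no peak reaches into the last 31618 bp.

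Along Pgr the IP fragments varied more than the background. The IP pileup differed 4.85 times between the highest and the lowest of the peaks, 63 against 13 fragments. The background differed 1.64 times, from 2.69 at peak 2 to 4.42 at peak 4. The highest background stood at one of the weakest peaks. All 4 backgrounds were above the list's median of 1.42, at percentiles 73.8 to 89.3 of all peaks.

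Set against each other without the pseudocount, the pileup over background was 17.2 at peak 1, 10.4 at peak 2, 3.76 at peak 3 and 4.52 at peak 4. Peak 1 was 3.81 times as enriched as peak 4 (2.27 to 6.66) and 4.59 times as enriched as peak 3 (2.501 to 9.09). Peaks 3 and 4 were not told apart, with a ratio of peak 4 to peak 3 of 1.20 (0.570 to 2.63). Peak 1 exceeded peak 2 by 1.66 times (1.05 to 2.69), and peak 2 exceeded peak 4 by 2.30 times (1.25 to 4.31) and peak 3 by 2.77 times (1.39 to 5.82). These are 6 pairs from 1 library, and the intervals were not adjusted for that.

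The backgrounds themselves came in steps. All 4 were whole multiples of 0.192, within 0.001, namely 19, 14, 18 and 23 steps for peaks 1 to 4. Among backgrounds between 0.3 and 2.5 in the whole list 64.3% were such multiples. What 1 step stands for is not given. If it is taken as 1 counted background fragment, its counting error widens the intervals. Then peak 1 was still above peak 3, by an odds ratio of 4.52 (1.74 to 12.1), and above peak 4, by 3.77 (1.61 to 9.04). The intervals of peak 1 over peak 2 (0.665 to 4.05), of peak 2 over peak 4 (0.878 to 6.09) and of peak 2 over peak 3 (0.958 to 8.07) came to include 1. The separation of the first peak from the mid-gene pair was therefore kept under both intervals, and the place of peak 2 was not.

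**Figure D2:**
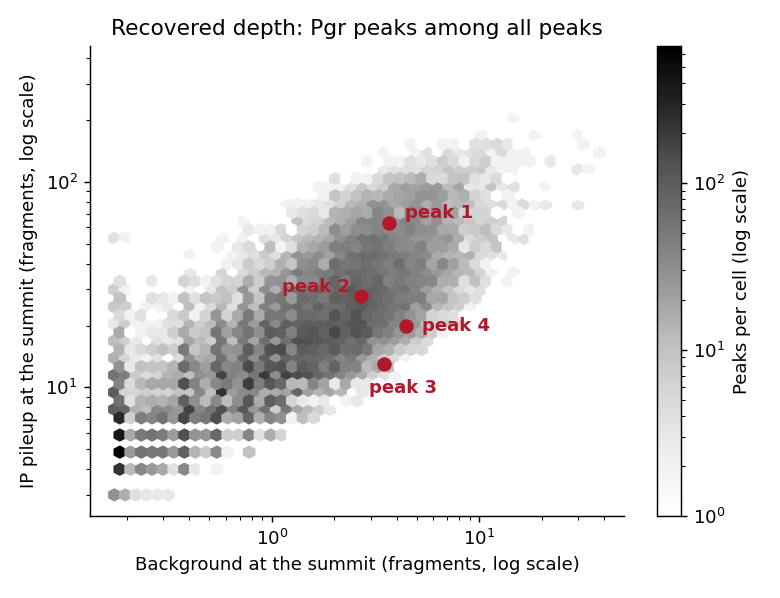
IP pileup (vertical axis, fragments) against background (horizontal axis, fragments) at the summit, both on log scales, with all 26584 peaks as grey cells shaded by number and the 4 Pgr peaks in red. The Pgr peaks have like backgrounds of 2.69 to 4.42, while their pileups run from 13 fragments at the lower edge of the cloud to 63 well inside it.

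Within the whole list, peak 1 stood out by its width. It covered 2245 bp, against a median of 322 bp (quartiles 217 and 573), and ranked 314 of 26584 by width (percentile 98.8). Among the 6244 peaks with a pileup between 0.5 and 2 times that of peak 1 the percentile was 95.9. Among the 2764 peaks of protein-coding genes with a summit within 2 kb of a listed start it was 99.3. Peaks 2 and 3 were 317 and 287 bp wide, close to the median, and peak 4 was 634 bp. The 4 peaks together covered 3483 bp, or 4.996% of the span. How many separate m6A sites lie under a peak as wide as peak 1 cannot be read from its edges.

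By fold enrichment the 4 peaks ranged from the upper part of the list to its lower end. Peak 1 was at percentile 89.5 of all peaks, peak 2 at 58.0, peak 4 at 3.72 and peak 3 at 0.735. Without the pseudocount the percentiles were 63.1 for peak 1, 33.2 for peak 2, 2.43 for peak 4 and 0.957 for peak 3. Among peaks with a background between 0.5 and 2 times their own, the percentiles were 87.2, 54.0, 6.36 and 1.03. Peaks 3 and 4 were also low beside the 4743 peaks that lay over 10 kb from both a listed start and the end of their gene, whose median fold enrichment was 7.03. Their backgrounds were at percentiles 80.5 and 88.0 of that same set.

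As a gene, Pgr had more peaks than most, a highest deposited fold enrichment above that of most genes with a peak, and a low median. Of 21900 protein-coding genes, 40.8% had a peak, and 7.13% had 4 or more. Of the 5128 protein-coding genes with a span between 0.5 and 2 times that of Pgr, 55.7% had a peak and 13.3% had 4 or more. The highest fold enrichment of Pgr, 13.8, was at percentile 78.2 of the 8941 such genes that had one, whose median was 9.29 (quartiles 6.60 and 13.1). The median over its 4 peaks, 5.86, was at percentile 24.2. Without the pseudocount, the highest pileup over background of Pgr, 17.2, was at percentile 46.1. The pseudocount lowers values most where the background is far below 1.

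In most genes of like span the strongest summit lay elsewhere than at the start. Among 2321 genes of like span with a peak and a known strand, the strongest summit lay within 2 kb of a listed start in 11.2% (95% interval 9.98 to 12.5) and within 5 kb of the end of the span in 39.5% (37.5 to 41.5). A peak at any strength within 5 kb of the end was present in 60.5% (58.5 to 62.5) of them, and Pgr had none. A peak within 2 kb of the start together with none within 5 kb of the end was seen in 10.2% (9.004 to 11.5). A peak that covered a listed start or began within 50 bp after it, as in Pgr, was present in 12.2% (10.9 to 13.6). Among the 215 of these genes that also had 4 peaks, such a peak was present in 19.5% (14.8 to 25.3). In the same 215 genes the strongest summit lay within 2 kb of a listed start in 14.0% (9.95 to 19.2). A peak within 5 kb of the end was present in 69.8% (63.3 to 75.5) of them.

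The distance without a summit at the end of Pgr was longer than in most genes of its size. In 15.8% (14.4 to 17.4) of the genes of like span the last summit was as far from the end as the 32121 bp of Pgr, and the median distance was 3340 bp. Among the 215 of these genes that also had 4 peaks, the share was 6.05% (3.57 to 10.1), or 13 genes, Pgr included. The ends are those of the longest annotated span, and a gene can end earlier in the uterus. Whether the last part of the Pgr transcript was sequenced as deeply as the first was not tested.

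**Figure D3:**
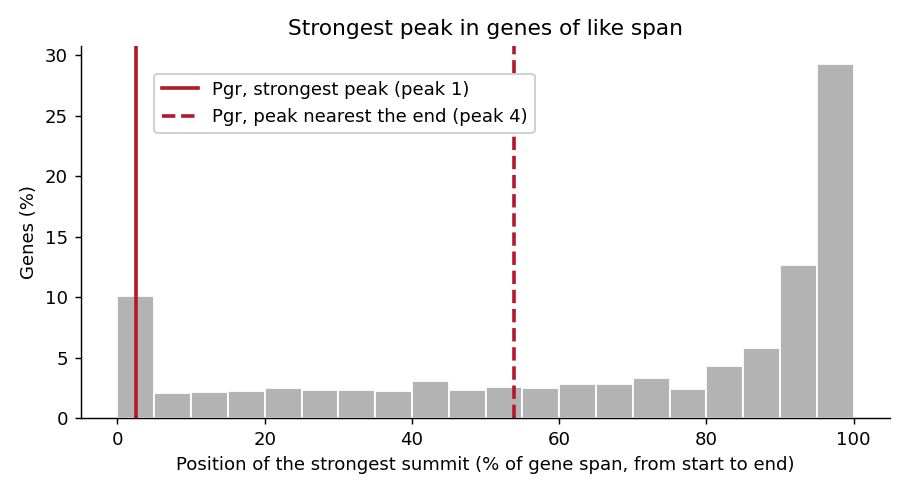
Share of genes in % (vertical axis) by the position of their strongest summit along the gene span in % from start to end (horizontal axis), in bins of 5%, for 2321 protein-coding genes of like span with a peak and a known strand; red lines mark Pgr. The strongest summit of most genes lies toward the end, with 29.3% in the last bin, while that of Pgr is in the first bin with 10.1% and its last peak lies at 53.9% of the span.

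Of the 5 genes most like Pgr in depth and size, 4 had their strongest site over 2 kb from every listed start. That is near the usual share. Among the 517 genes with 4 peaks and a known strand, the strongest summit lay within 2 kb of a listed start in 15.9%. Likeness was measured among the 629 genes with 4 peaks as the distance over 4 standardised log2 values, namely the highest fold enrichment, the background and width of that peak and the span. The nearest were Pdzd8, a lipid transfer protein gene of membrane contact sites, the osmotic stress regulator gene Nfat5, Fgd5, an endothelial exchange factor gene, the zinc finger gene Tshz3 and the ubiquitin ligase gene Nedd4. Their highest fold enrichments ran from 11.9 in Tshz3 to 14.9 in Pdzd8, with widths from 1871 bp in Nedd4 to 2790 bp in Fgd5. The strongest summit lay within 5 kb of the end of the span in Pdzd8 (4666 bp) and Tshz3 (1944 bp) and 12200 bp from it in Nfat5. In Fgd5 it lay 8272 bp from the nearest listed start. In Nedd4 it lay 684 bp from a listed start, though at 36.2% of the span. Of the 5 genes, 4 had a summit within 5 kb of the end, and Nfat5 had its last 8329 bp from it. Among the same 517 genes the share with a summit within 5 kb of the end was 78.3%.

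Of the further steroid receptor genes, Esr1 had 16 peaks and Nr3c1 and Nr3c2 had 2 each, against 4 in Pgr. Esr2, one of the oestrogen receptor genes, had no peak. Esr1, the other oestrogen receptor gene, reached 13.2 (10.02 to 17.1), close to Pgr. The highest of Esr1 lay at 82.2% of its span, and it had 1 summit within 5 kb of the end, 3789 bp from it, where Pgr had none. Like Pgr, Esr1 also had a summit near a listed start, 80 bp from it, at 7.26 (4.71 to 10.7). Nr3c2, the mineralocorticoid receptor gene, had 10.2 (6.50 to 15.4) at 3.01% of its span from 21 fragments. That summit lay 6189 bp from the nearest listed start. As in Pgr, no summit of Nr3c2 lay within 5 kb of the end, and its last was 168718 bp from it. The glucocorticoid receptor gene Nr3c1 had 8.67 (6.59 to 11.2). The strand of Nr3c1 is not in the table used, so the place of its peaks along the transcript was not analysed here.

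Of 8 genes listed as membrane progesterone receptors or their relatives, 3 (37.5%, 13.7 to 69.4) had a peak, close to the 40.8% of all protein-coding genes. Pgrmc2, a haem-binding membrane component, had 16.1 (10.5 to 23.6), the related Pgrmc1 had 8.67 (5.46 to 13.2) and Paqr7, a membrane progestin receptor gene, had 5.96 (2.73 to 12.0) from 6 fragments. Paqr5, Paqr6, Paqr9 and Nenf had none, and the 4 peaks in Paqr8 fell in a stretch shared with a second gene and were not counted.

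All 12 genes of the chaperone machinery that holds the receptor ready for hormone had a peak, against 40.8% of all protein-coding genes, and most had a lower fold enrichment than Pgr. Their median was 6.84, against 9.29 over the 8941 protein-coding genes, and 2 of the 12 exceeded Pgr. These were Dnajb1, an HSP40 gene, at 32.3 (25.5 to 40.3), and the cochaperone gene Fkbp5, itself a hormone target, at 14.1 (8.74 to 21.6). St13, which encodes a cochaperone of HSP70, followed at 13.2 (9.99 to 17.3). Fkbp4, whose product is needed for progesterone receptor function in the uterus, had 5.15 (3.16 to 7.98).

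The coregulators were the list with the highest median of the 6, 17.8 against 9.29 for all protein-coding genes with a peak, with a peak in 13 of 14 genes (92.9%, against 40.8% of all protein-coding genes), of which 9 exceeded Pgr. Jdp2, a leucine zipper coactivator, had 29.4 (22.9 to 37.2), and the steroid receptor coactivator gene Ncoa2 had 27.7. Uba3, a subunit of the NEDD8 activating enzyme, had no peak. All 10 regulators of Pgr or partners at its target sites had a peak, against the same 40.8%, with a median of 16.0 against 9.29, and 6 exceeded Pgr. Without the pseudocount, all 10 had a higher pileup over background than Pgr, Egr1 for one with 15 fragments over 0.669. The highest were the transcription factor gene Cebpb at 28.3, Nr2f2 (COUP-TFII) at 21.4 and Cited2 at 18.9.

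Of 20 genes induced by progesterone in the uterus, 15 (75%) had a peak, against 40.8% of all protein-coding genes. Their median was 10.3, against 9.29 over all such genes with a peak, and 5 exceeded Pgr. Hand2, a stromal factor that restrains growth signals to the epithelium, had 29.5, Klf15 had 26.5 (21.6 to 32.3) and Irs2, an adaptor of insulin signalling, had 18.5 (13.7 to 24.6). Areg, Calca, Il13ra2 and Cdo1 had none, and the 2 peaks of Hoxa11 lay in shared spans. In every list, the count of genes above Pgr uses the deposited fold enrichment with its pseudocount. Without the pseudocount further genes pass Pgr, among them Ihh, with 4 fragments over a background of 0.175. Fold enrichments of different genes differ in background and depth, and the peak list holds no expression values, so a gene without a peak may be little expressed or little methylated.

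The strongest peak was near the start in a few of these genes too. Of the 68 genes of the 6 lists, 40 had a peak and a known strand. In 9 of them (22.5%), Pgr included, the strongest summit lay within 2 kb of a listed start and over 5 kb from the end, against 11.5% of all 7179 protein-coding genes for which both are known. The other 8 were Pgrmc1, Pgrmc2, Fkbp4, Bag1, the acetyltransferase gene Ep300, the chromatin remodelling gene Arid1a, the forkhead gene Foxo1 and Gas6. The lists were drawn up by function, and no test of this share was made.

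**Figure D4:**
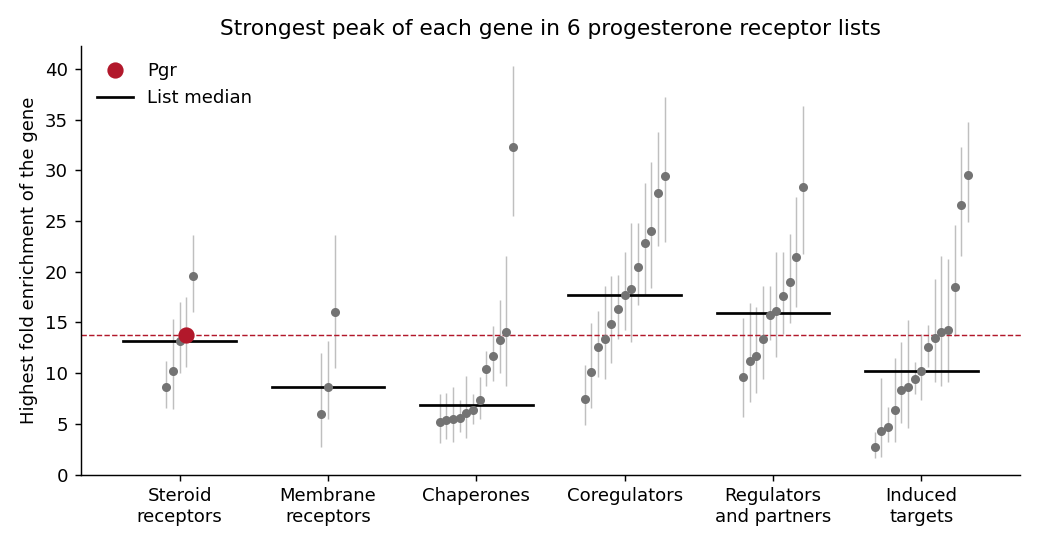
Highest fold enrichment of each gene with a peak (vertical axis), by list (horizontal axis), with 95% counting intervals; black lines are list medians and the red dashed line is Pgr. The coregulators have a median of 17.8 and the chaperones 6.84, with Pgr at 13.8 between them.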

How the data were processed

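The data are 1 peak list deposited with the IP sample. Reads were handled with HISAT2 2.2.1 and MACS3 3.0.0a7 on mm10, per the submitters' processing notes. The sources used here do not give the options, any pooling or the use of the input. For each peak the authors deposited a fold enrichment, which is a ratio, the −log10 of a p-value and of a q-value, and a score. Per the deposited values, the fold enrichment adds a pseudocount of 1 to the IP pileup and to the background.

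The whole-number pileup that gave the deposited −log10 p from the Poisson tail was sought for each peak, which also gave its background. For the 4 Pgr peaks the match was within 0.001 of −log10 p. The solver was tested on simulated data. Intervals are exact Poisson intervals for fold enrichments, exact binomial intervals for ratios of peaks and Wilson intervals for shares, all at the 95% level. They cover counting error only. Those of fold enrichments and of ratios of peaks treat fragments as independent, and amplified fragments are not independent molecules.

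A peak was assigned by its summit to a gene of the RefSeq table for GRCm38.p6 (49997 genes), which holds spans without exons. For all other genes the summit had to lie in the span of that gene alone. Strand and transcript starts came from a RefSeq table of promoter windows, which held 17492 of 21900 protein-coding genes. Peaks have no strand, so sense and antisense RNA were not separated. Coordinates count from 1.

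Pgr and the lists were chosen with earlier results of these data known. Named genes are the 3 members of each list with the highest fold enrichment, its members without a peak, and the 5 genes most like Pgr. Some genes that this rule names are not reported here. Genes named outside this rule were chosen with their values in view. Figures were drawn with matplotlib 3.10.9, and values computed with scipy 1.17.1, pandas 2.3.3 and numpy 2.4.6 under Python 3.11.15.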

Additional observations from a re-analysis of the deposited data

How the results depend on the processing

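All 4 Pgr peaks were still counted with any overlap, with at least 50% of the peak inside the span, with the span widened by 10 kb and with a pileup of at least 10. There were 3 with −log10 q of at least 5 and 2 with a fold enrichment of at least 4. The median fold enrichment over the peaks was 5.86. The percentile of the highest fold enrichment, 78.2, became 24.2 with the median of each gene's peaks, 76.2 with −log10 q of at least 5, 46.1 without the pseudocount, 76.2 among genes of like span, 73.0 among genes of like background and 78.0 with shared spans counted. The percentile of the number of peaks went from 86.1 to 80.8 among genes of like span. That of the width of peak 1 went from 98.8 to 95.9 among peaks of like pileup. Counting the background in steps was added after the data were seen. No paired analysis was possible because there is 1 IP and 1 input sample.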

Other observations

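Outside the span, the list held 6 peaks in the 100 kb before Pgr and 2 in the 100 kb after it, and none of the 8 summits lay in a gene of the RefSeq table. The nearest before the gene, at chromosome 9, 8885237 to 8885953, was 717 bp wide with a fold enrichment of 10.5 (6.24 to 16.6), above 3 of the 4 peaks inside Pgr. It had 16 IP fragments over a background of 0.627, and its summit was 13554 bp before the span. The interval of this peak overlapped those of peaks 1 and 2. Without the pseudocount its pileup over background was above that of all 4 Pgr peaks, of which peak 1 was highest at 17.2. So was that of the peak at 8845095 to 8845378, with 12 fragments over 0.577. Both rest on few fragments and a low background. A group of 4 peaks at 8845095 to 8851386 had fold enrichments from 4.52 to 8.24, on 7 to 12 fragments each. The interval from the preceding gene, the long non-coding RNA gene Gm32014, to Pgr is 157911 bp long and held 7 peaks. In the whole list 8.36% of summits lay in no gene, with a median fold enrichment of 6.32. The peaks after Pgr, at 8990315 to 8990521 and 8991369 to 8991568, had 6.50 and 4.33 and lay closer to Arhgap42 than to Pgr. The transcripts that gave these fragments are not known from the peak list.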
